A study of Mus musculus with 8 samples.

Results

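Nearly all mitochondrial proteins are made in the cytosol and carried in through the import machinery, whose genes are described here in *Zeb1-/-* bone marrow progenitors. The set holds the protein-coding genes named *Tomm* or *Timm* with a number, together with *Hspd1*, *Hspe1*, *Hspa9*, *Pam16*, *Dnajc19*, *Grpel1*, *Grpel2*, *Pmpca*, *Pmpcb*, *Samm50*, *Chchd4* and *Gfer*. This gave 37 of the 54532 genes in the table, and 34 of them had enough reads to be tested. Bone marrow LSK cells of *Zeb1-/-* C57BL/6 mice aged 8 to 12 weeks had been split by EpCAM, and RNA-Seq covered 4 EpCAM+ and 4 EpCAM- samples. LSK cells lack markers of mature blood lineages and carry SCA-1 and C-KIT, and the compartment contains the hematopoietic stem and progenitor cells (HSPCs). In both fractions floxed *Zeb1* had been removed by *Mx1-Cre*, an interferon-inducible Cre that is also active outside blood cells, after pIpC injection, and cells were taken on day 14 after the last dose. No library from mice with intact *Zeb1* is part of the comparison. RNA was amplified with SMART-Seq v4 before sequencing, and each library had between 14114491 and 17073546 reads counted on genes.

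The labels were first checked against the genes that define the fractions. *Epcam*, which encodes the adhesion protein used for sorting, stood at 234, 161, 171 and 183 CPM (read counts scaled to the size of each library) in the 4 EpCAM+ libraries and at 8.99, 3.77, 1.43 and 1.25 CPM in the 4 EpCAM- libraries. *Zeb1* was at 23.7, 14.8, 20.8 and 18.8 CPM in EpCAM+ and at 13.4, 14.0, 10.7 and 9.49 CPM in EpCAM-, higher in EpCAM+ without overlap (edgeR log2 fold change 0.72 ± 0.17 SE, adjusted p = 0.00798). Whole-gene counts do not show which exons those reads cover, and the deletion itself was not tested here. *Kit* was present in all 8 libraries, with overlapping fractions. *Ly6a*, which encodes SCA-1, was at 351, 195, 140 and 116 CPM in EpCAM+ but at 71.7, 61.3, 16.4 and 15.7 CPM in EpCAM- (edgeR log2 fold change 2.28 ± 0.53 SE, adjusted p = 0.00658).

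A protein bound for mitochondria is recognised by receptors of the translocase of the outer membrane (TOM) and passes through its TOMM40 channel. Proteins with a cleavable presequence continue through the TIM23 channel, are pulled into the matrix by a motor built around the HSP70 chaperone HSPA9, lose the presequence to a peptidase and fold with the help of the HSPD1 and HSPE1 chaperonin. Other routes use small TIM chaperones in the intermembrane space, the TIM22 carrier translocase, the SAM complex for outer membrane barrels and the MIA oxidative folding relay. In hematopoietic stem cells mitochondrial activity is known to be kept low and to rise as cells differentiate.

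The import genes were lower in EpCAM+ cells. Of the 34 tested genes, 26 fell and 0 rose at an adjusted p under 0.05 (edgeR quasi-likelihood test), and no member with a positive log2 fold change had an unadjusted p under 0.05. DESeq2 also called 26 lower and 0 higher, against 3175 lower and 3280 higher of all 17800 genes it tested. Across all 13560 genes tested with edgeR, 20.8% were lower and 21.8% were higher at the same threshold, together 42.6%. A negative log2 fold change, called or not, was found in 32 of the 34 genes and in 48% of all tested genes. The falls were moderate, with a median log2 fold change of -0.45 over the 34 genes, a decrease of 26.6% in CPM, against 0.02 over all tested genes. Among called genes the log2 fold change ran from -0.98 for *Tomm40* to -0.25 for *Timm21*, so 9 fell by over 1.5-fold and 0 by over 2-fold. In 22 genes all 4 EpCAM+ libraries lay below all 4 EpCAM- libraries, which held for 20% of all tested genes, and in 0 all EpCAM+ libraries lay above, against 20.1%. Another 4 called genes, *Timm23*, *Timm17b*, *Tomm5* and *Tomm20*, overlapped between fractions, as did all 8 genes that were not called. The study itself named mitochondrial protein import from these samples, so the direction of the set is not independent evidence, and in bulk samples fewer cells of a type and less RNA per cell cannot be told apart.

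**Figure D1:**
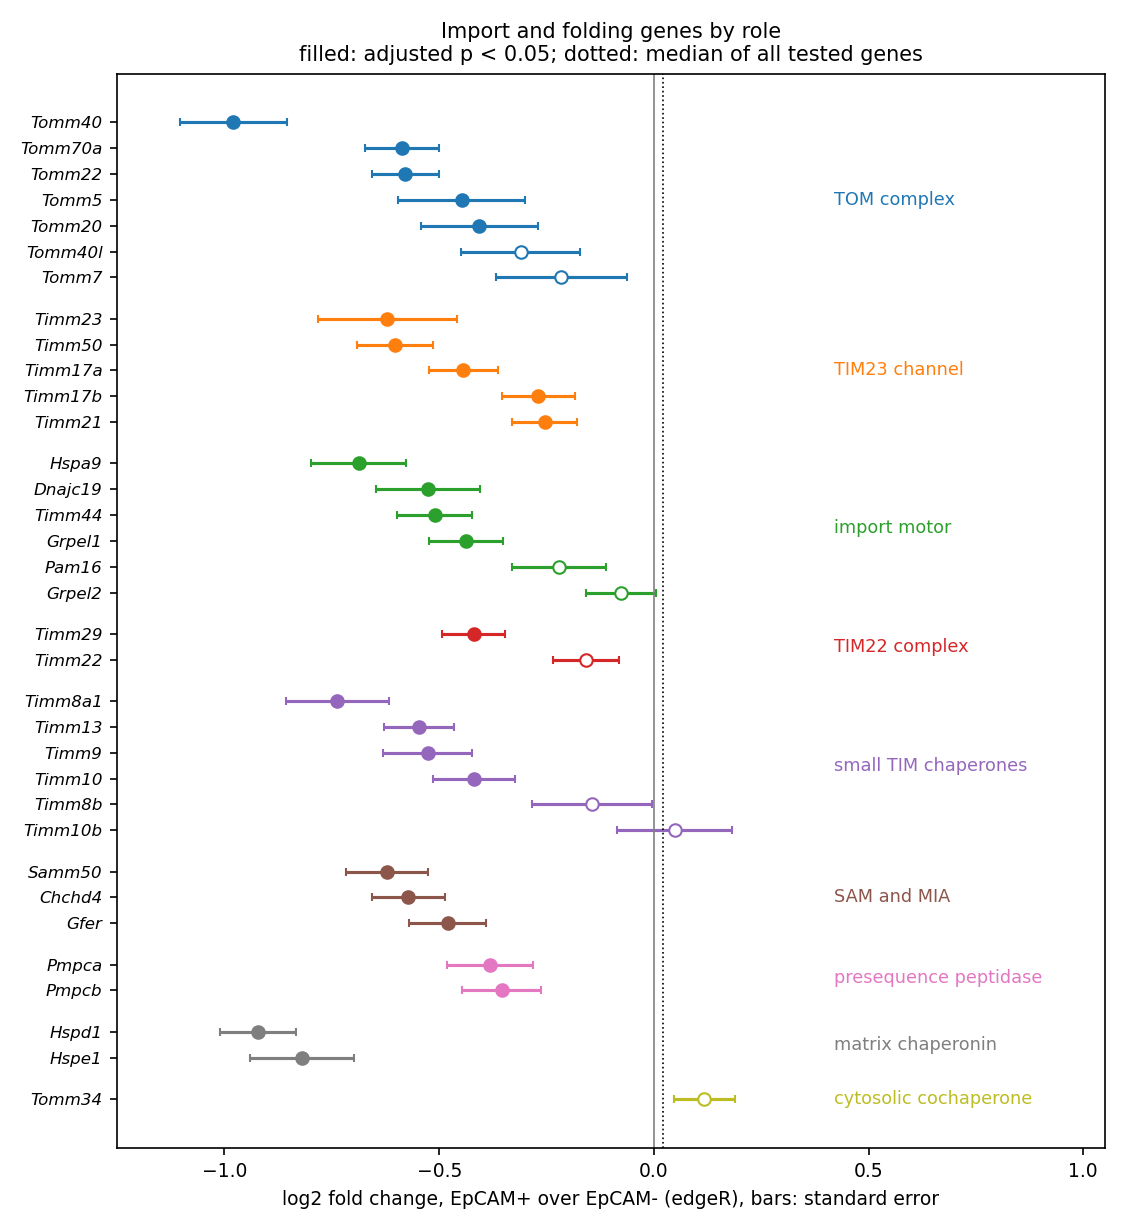
Log2 fold change of each tested import gene, EpCAM+ over EpCAM-, from edgeR (x axis) with its standard error, grouped by role (y axis) and with 4 libraries per fraction. Filled points had an adjusted p under 0.05, and all 26 of them lie left of 0, with *Tomm40* lowest at -0.98.

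The promoters of the import genes were read for motifs of factors linked to mitochondrial genes. RefSeq windows (GRCm38.p6, 250 bases before to 50 after a start) matched 32 of the 37 genes by symbol. The letters CCGGAA, which read TTCCGG on the other strand and are the core bound by ETS factors such as GABPA, occurred in 16 of the 32 genes (50%), in 12 of 24 genes that fell and in 4 of the other 8. Those other genes include *Timm8a2*, *Tomm20l* and *Tomm6*, which had too few reads to be tested, and *Timm8a2* is among those with a match. The letters CCGGAA occurred in 32.3% of 9740 tested genes with a window and in 14.9% of all 32851 windows. CACGTG, an E-box that MYC binds, occurred in 6 genes (18.8%, against 11.9% of tested genes and 7.15% of all windows). TGCGCA, the core of the NRF1 site, occurred in 6 (18.8%, against 16.0% and 7.76%). CACCTG, which reads CAGGTG on the other strand and is an E2-box of the kind that ZEB1 binds, occurred in 4 (12.5%, against 20.5% and 20.2%). GATTGG, a form of the Y box that reads CCAATC on the other strand, occurred in 4 (12.5%, against 24.0% and 16.1%). It covers only CCAAT followed by C. *Tomm40* has no such match but holds CCAAT before other letters in the sequence below. The ATF4 composite TTGCATCA, or TGATGCAA on the other strand, occurred in 0, against 0.688% of tested genes and 0.895% of all windows. A match is a description of the letters only.

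The sequences below are those of called genes with 3 matches to CCGGAA in the window and at least 1 before the start. Added to them is that of *Tomm40*, which fell most in the main comparison and has no match. All sequences are cut at the first annotated base of the transcript. They are in lower case, 5′ to 3′, from GRCm38.p6 (RefSeq), with CCGGAA or TTCCGG in capitals; TTCCGGAA holds a match on each strand. *Hspd1* and *Hspe1* are transcribed away from each other, and the 107 bases between the starts of *Hspd1*-201 and *Hspe1*-201 lie at chr1:55088025-55088131 (plus strand shown). A longer transcript, *Hspd1*-202, starts at 55088243 and runs through them. The other 3 lie at chr14:32201899-32202141 (*Timm23*, minus strand), chr15:79670618-79670860 (*Tomm22*, plus strand) and chr7:19715439-19715679 (*Tomm40*, minus strand), each just before the start of its gene.
Hspd1-Hspe1: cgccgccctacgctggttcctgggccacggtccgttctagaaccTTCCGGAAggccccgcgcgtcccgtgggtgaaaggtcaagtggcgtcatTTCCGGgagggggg
Timm23: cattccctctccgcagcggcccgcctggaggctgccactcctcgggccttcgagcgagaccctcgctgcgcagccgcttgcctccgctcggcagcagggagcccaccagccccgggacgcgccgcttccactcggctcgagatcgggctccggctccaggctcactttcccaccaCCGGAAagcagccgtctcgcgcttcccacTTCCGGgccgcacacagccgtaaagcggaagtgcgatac
Tomm22: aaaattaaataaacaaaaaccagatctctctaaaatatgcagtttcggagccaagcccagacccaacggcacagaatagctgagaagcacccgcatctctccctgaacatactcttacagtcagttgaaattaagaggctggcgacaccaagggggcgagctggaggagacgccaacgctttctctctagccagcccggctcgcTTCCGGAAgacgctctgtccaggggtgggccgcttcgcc
Tomm40: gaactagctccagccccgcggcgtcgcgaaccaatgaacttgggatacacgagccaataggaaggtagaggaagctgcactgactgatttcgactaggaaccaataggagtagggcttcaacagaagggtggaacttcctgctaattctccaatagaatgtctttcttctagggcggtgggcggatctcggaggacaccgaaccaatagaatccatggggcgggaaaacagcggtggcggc

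Between the 2 chaperonin genes, whose log2 fold changes were -0.92 and -0.82, the shared stretch holds 3 matches. *Timm23* and *Tomm22* hold 2 each before the start, and *Timm10* holds 3 in its window, none of them before the gene's first base in the GENCODE annotation.

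In the outer membrane, 5 of 7 tested TOM genes fell, against 20.8% of all tested genes, with a median log2 fold change of -0.45. *Tomm40*, the channel subunit, was at 128, 145, 139 and 158 CPM in EpCAM+ and at 229.8, 257, 289.7 and 349 CPM in EpCAM-. The fractions were far apart, and the fall was the largest of the whole set in the main comparison (log2 fold change -0.98 ± 0.12 SE, adjusted p = 0.000373). *Hspd1* was close behind (-0.92 ± 0.09), and it fell slightly more than *Tomm40* without EpCAM+ replicate 1 or without EpCAM- replicate 4. *Tomm22*, a receptor that holds the complex together, was at 137, 132, 131 and 132 CPM in EpCAM+ against 172, 214, 198 and 213 CPM in EpCAM- (-0.58 ± 0.08, adjusted p = 0.000507). Here the EpCAM+ libraries hardly differed from one another, and the lowest EpCAM- library was replicate 1. The receptor gene *Tomm70a* fell by a similar amount (-0.59 ± 0.09), while the receptor gene *Tomm20* (-0.41 ± 0.14) and the small subunit gene *Tomm5* (-0.45 ± 0.15) had overlapping fractions. The call was lost in 8 of 18 alternative settings for *Tomm20* and in 6 of 18 for *Tomm5*. Another small subunit gene, *Tomm7*, had a log2 fold change of -0.22 ± 0.15 and was not called (adjusted p = 0.276), and the value was -0.046 without EpCAM- replicate 2.

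*Tomm40l* encodes a second, TOMM40-like channel protein and was scarce. It was at 16.6, 17.2, 16.2 and 17 CPM in EpCAM+ and at 15.9, 25.5, 22.5 and 19.3 CPM in EpCAM-, so the fractions overlapped (-0.31 ± 0.14, adjusted p = 0.0953). Without EpCAM- replicate 1 it was called lower (-0.42, adjusted p = 0.0156). *Tomm20l* had 6, 9, 8 and 4 reads in EpCAM+ and 4, 3, 7 and 6 in EpCAM-, and *Tomm6* had 10, 1, 3 and 6 against 3, 1, 3 and 3, both too few to be tested. Of the 1131 exonic bases of *Tomm6*, 859 are shared with *Gm21981* on the same strand in GENCODE M21, so its low count cannot be read as a low level of its RNA. *Tomm34*, a cytosolic cochaperone that handles precursors before import, had the highest log2 fold change of the set and was not called. It was at 128, 109, 116 and 114 CPM in EpCAM+ and at 114, 104, 109 and 103 CPM in EpCAM-, with overlapping fractions (0.12 ± 0.07, adjusted p = 0.203). With upper quartile scaling it was called higher, at 0.20.

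All 5 genes of the TIM23 channel were called lower, against 20.8% of all tested genes, and 3 of them did not overlap between the fractions. *Timm50*, a receptor that takes presequences from the TOM complex, was at 162, 178, 167 and 184 CPM in EpCAM+ and at 225, 256, 278 and 291 CPM in EpCAM- (-0.60 ± 0.09, adjusted p = 0.000735). *Timm17a*, a core channel subunit, was at 86.8, 105, 98.1 and 101 CPM in EpCAM+ and at 119.7, 135, 139 and 137 CPM in EpCAM- (-0.44 ± 0.08, adjusted p = 0.00187). Neither gene overlapped between the fractions. The paralog of *Timm17a*, *Timm17b* on the X chromosome, was at 123, 145, 120.0 and 121 CPM in EpCAM+ and at 139, 168, 156 and 150.0 CPM in EpCAM-. The single EpCAM+ library at 145 CPM reached into the EpCAM- range (-0.27 ± 0.09, adjusted p = 0.027), and the call was lost in 7 of 18 alternative settings. That of *Timm21*, a further subunit gene with the smallest fall of the called genes (-0.25), was lost in 5 of 18. *Timm23*, which forms the channel with TIMM17 proteins, varied most of the 5, from 79.3 to 132 CPM in EpCAM+ and from 125 to 189 CPM in EpCAM- (-0.62 ± 0.16, adjusted p = 0.0117).

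Among the 6 genes of the import motor, 4 fell, against 20.8% of all tested genes. *Hspa9*, the matrix HSP70 that pulls and then folds incoming chains, was at 343, 388, 394 and 409 CPM in EpCAM+ and at 534, 577, 608 and 751 CPM in EpCAM- (-0.69 ± 0.11, adjusted p = 0.00105). *Timm44*, which tethers HSPA9 to the channel, was at 63.2, 62.4, 63.6 and 56.2 CPM against 78.9, 84.0, 85.6 and 101 CPM (-0.51 ± 0.09, adjusted p = 0.00147). Both genes were separated between the fractions. *Grpel1* and *Grpel2* encode nucleotide exchange factors that recycle HSPA9. *Grpel1* was at 135, 159, 147 and 155 CPM in EpCAM+ and at 186, 228, 208 and 186 CPM in EpCAM- (-0.44 ± 0.09, adjusted p = 0.00311). *Grpel2* was at 49.8, 45.6, 47.6 and 40.6 CPM in EpCAM+ and at 46.5, 48.5, 50.9 and 47.6 CPM in EpCAM-, with the fractions overlapping (-0.08 ± 0.08, adjusted p = 0.475, with the sign reversed under upper quartile and library total scaling, at 0.010 and 0.0093). *Dnajc19*, a J-domain subunit that stimulates the motor, fell by 0.53 on the log2 scale, and its J-like partner *Pam16* had a log2 fold change of -0.22 ± 0.11 and was not called (adjusted p = 0.128), but it was called lower with the replicate number as a block (adjusted p = 0.0324).

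**Figure D2:**
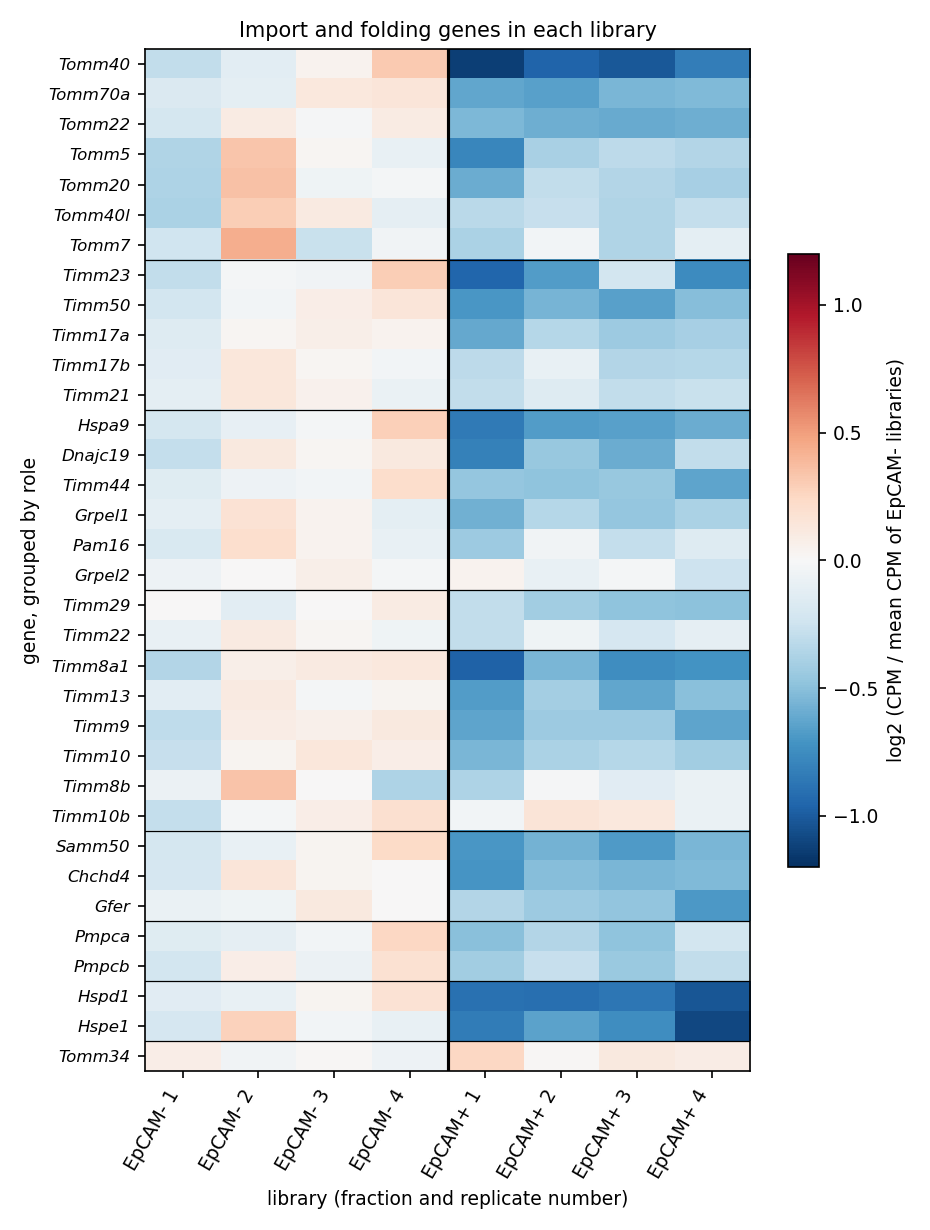
Each of the 34 tested import genes (rows, grouped by role) in each of the 8 libraries (columns), as the log2 ratio of its CPM to the mean of the 4 EpCAM- libraries. Blue is lower and red is higher, and EpCAM- replicate 1, with a median of -0.20, is the EpCAM- library closest to EpCAM+.

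In the matrix, *Hspd1* and *Hspe1* encode the barrel and the lid of the chaperonin that folds imported proteins. *Hspd1* was at 619.8, 614, 631 and 563 CPM in EpCAM+ and at 1049, 1080.5, 1176 and 1296 CPM in EpCAM-, a wide gap with no overlap (-0.92 ± 0.09, adjusted p = 0.000165, the smallest of the set). *Hspe1* was at 147, 169, 157 and 124 CPM in EpCAM+ and at 229.8, 319, 257 and 248 CPM in EpCAM- (-0.82 ± 0.12, adjusted p = 0.000715). Again all 4 EpCAM+ libraries were the lower ones. A gene copy listed as *Hspd1-ps3* took 200 to 435 reads per library, between 2.30% and 2.47% of the *Hspd1* count in each, and how reads that fit both were assigned is not given in the sources used here. *Pmpca* and *Pmpcb* encode the subunits of the presequence peptidase. *Pmpca* was at 124, 137, 126 and 150.4 CPM in EpCAM+ and at 159, 163, 171 and 207 CPM in EpCAM- (-0.38 ± 0.10, adjusted p = 0.0121), and *Pmpcb* was at 77.8, 85.8, 76.1 and 84.7 CPM against 89.3, 109, 98.5 and 118 CPM (-0.35 ± 0.09, adjusted p = 0.0116). Both fell without overlap between the fractions.

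The remaining routes were mixed. Of 6 tested small TIM genes, whose products carry hydrophobic precursors across the intermembrane space, 4 fell, against 20.8% of all tested genes. *Timm13* was at 145, 174, 151 and 164 CPM in EpCAM+ and at 212, 250.2, 228 and 236 CPM in EpCAM- (-0.55 ± 0.08, adjusted p = 0.000741). Its partner *Timm8a1*, on the X chromosome, was at 60.7, 81.4, 71.2 and 72.3 CPM against 93.6, 125, 128 and 130.1 CPM (-0.74 ± 0.12, adjusted p = 0.00114). *Timm10* was at 55.8, 62.7, 64.4 and 60.9 CPM against 67.4, 83.2, 89.3 and 86.3 CPM (-0.42 ± 0.10, adjusted p = 0.00588). In these 3 genes the fractions did not overlap, and *Timm9*, which forms a complex with TIMM10, also fell (-0.53 ± 0.10).

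The related *Timm8b* and *Timm10b* were not called. *Timm8b* was at 43.0, 55.2, 50.9 and 52.6 CPM in EpCAM+ and at 53.1, 70.8, 55.9 and 43.0 CPM in EpCAM- (-0.14 ± 0.14, adjusted p = 0.429), and the log2 fold change was -0.017 without EpCAM- replicate 2 and -0.25 without EpCAM- replicate 4. *Timm10b*, whose product docks at the TIM22 complex, was at 11.6, 13.2, 12.9 and 11.2 CPM in EpCAM+ and at 9.67, 11.6, 12.5 and 13.5 CPM in EpCAM- (0.05 ± 0.13, adjusted p = 0.792), and its sign turned to -0.0430 without EpCAM- replicate 1. Both overlapped between the fractions. *Timm8a2* had 3 reads in a single EpCAM+ library and 0 in the other 7, so it was not tested.

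For the TIM22 complex, which inserts carrier proteins into the inner membrane, *Timm29* was at 72.9, 67.2, 64.4 and 63.8 CPM in EpCAM+ and at 90.2, 82.3, 90.1 and 96.3 CPM in EpCAM- (-0.42 ± 0.07, adjusted p = 0.0017). The channel gene *Timm22* was at 86.0, 102, 91.9 and 98.1 CPM against 98.9, 114, 107 and 102 CPM and was not called (-0.16 ± 0.08, adjusted p = 0.118), but it was called lower with the replicate number as a block (adjusted p = 0.046). Only *Timm29* was separated between the fractions. *Chchd4* (MIA40), the oxidoreductase that traps cysteine-rich proteins in the intermembrane space, was at 87.1, 99.6, 96.9 and 98.3 CPM in EpCAM+ and at 124, 157, 145 and 142 CPM in EpCAM- (-0.57 ± 0.08, adjusted p = 0.000715). *Samm50*, the core of the outer membrane sorting complex, was at 178, 195, 180.0 and 197 CPM against 249, 271, 294 and 337 CPM (-0.62 ± 0.10, adjusted p = 0.000864). *Gfer*, whose product reoxidises CHCHD4, fell as well (-0.48 ± 0.09), and no library crossed between fractions in these 3 genes.

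Related genes that serve one route were then compared within libraries, as the log2 ratio of their read counts, which does not depend on library scaling. Of 8 pairs 7 could be tested. The ratio of *Tomm40* to *Tomm40l* was 2.95, 3.07, 3.10 and 3.22 on the log2 scale in EpCAM+ and 3.85, 3.34, 3.69 and 4.18 in EpCAM-, lower by 0.68 in EpCAM+ (log2 difference -0.68). That of *Timm8a1* to *Timm8b* was 0.50, 0.56, 0.49 and 0.46 against 0.82, 0.82, 1.19 and 1.60 (difference -0.61). For *Timm10* over *Timm10b* the values were 2.27, 2.25, 2.32 and 2.45 against 2.80, 2.84, 2.84 and 2.68 (difference -0.47). *Grpel1* over *Grpel2* gave 1.44, 1.81, 1.63 and 1.93 against 2.00, 2.24, 2.03 and 1.97 (difference -0.36). In these 4 pairs no EpCAM+ library reached the EpCAM- range, and the gene that was not called had fewer reads than the other in every library. Among single genes, the EpCAM+ libraries lay all below in 20% and all above in 20.1% of all tested genes. No such share was computed for ratios of other genes. More abundant genes also had lower log2 fold changes over all tested genes (Spearman's rho -0.357), and the part of this in the ratios was not tested.

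The exact two-sided permutation test gave each of these 4 pairs p = 0.0286, the smallest that 4 libraries against 4 allow, and an adjusted p of 0.05 over the 7 pairs, which is at and not under the threshold. Of the others, all with overlapping fractions, *Timm17a* over *Timm17b* differed by -0.17 (exact permutation p = 0.0857, adjusted p = 0.12). *Hspd1* over *Hspe1* differed by -0.10 (exact permutation p = 0.457, adjusted p = 0.533) and *Pmpca* over *Pmpcb* by -0.03 (p = 0.743). Between libraries of the same replicate number, *Timm17a* over *Timm17b* was lower in EpCAM+ in all 4 comparisons, like the 4 separated pairs (exact sign-flip p = 0.125 for each). Leaving out 1 library at a time moved *Hspd1* over *Hspe1* between -0.224 (without EpCAM- replicate 2, adjusted p = 0.08) and -0.016 (without EpCAM- replicate 4), and *Pmpca* over *Pmpcb* between -0.089 (without EpCAM- replicate 2) and -0.0040 (without EpCAM- replicate 1). Several of these genes share exonic bases with a neighbour on the opposite strand. Reads of such neighbours cannot be told apart there, since libraries were made from amplified double-stranded cDNA and the strand setting is not given. Of the 3582 exonic bases of *Timm10b*, 277 lie opposite *Arfip2*, which had 4371 reads over the 8 libraries against 1490 for *Timm10b*. On the same strand, 376 of the bases of *Timm10b* are shared with *Gm45799*, which had 14 reads. For *Timm8b* 81 of 518 lie opposite *Nkapd1* (3845 reads against 6564), for *Pmpca* 874 of 4282 opposite *Inpp5e* (1907 against 18948) and for *Grpel1* 411 of 3528 opposite *Tada2b* (1002 against 21541). *Tomm40l* has 3304 of 5135 opposite *Nr1i3*, which had at most 2 reads in a library. *Hspd1* and *Hspe1* lie opposite each other over 112 of their 2642 and 1474 exonic bases (106541 and 25078 reads). The part of these overlaps in the ratios was not tested.

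**Figure D3:**
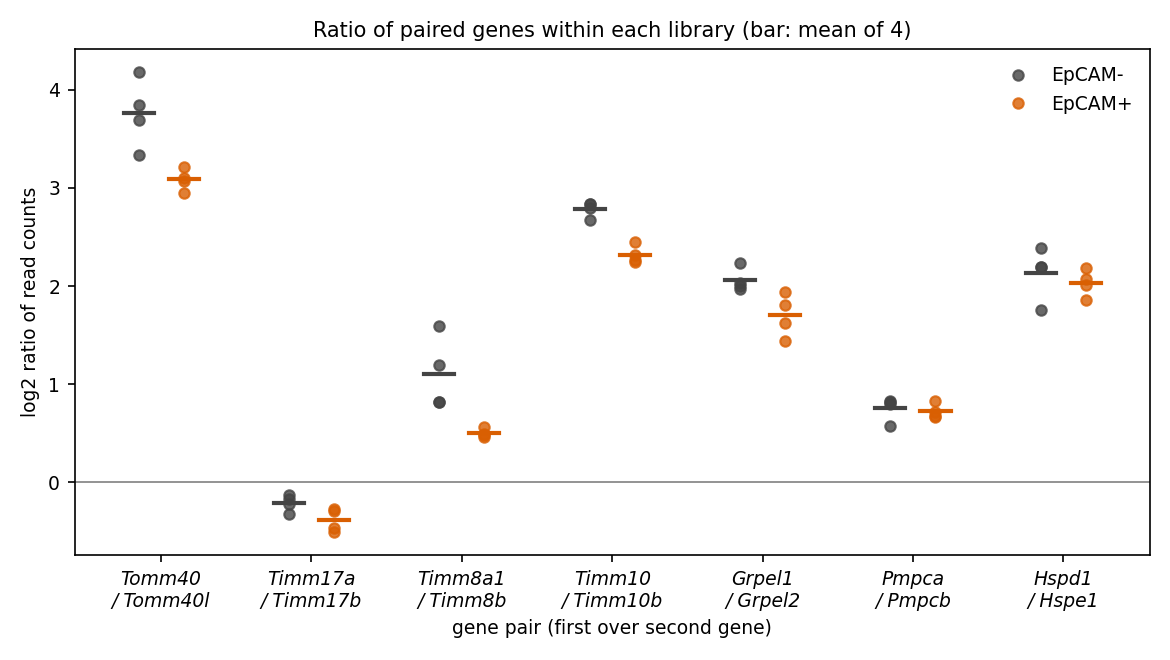
Log2 ratio of the read counts of 7 gene pairs (y axis) in each of the 4 EpCAM- (grey) and 4 EpCAM+ (orange) libraries, with bars at the means. The 4 pairs *Tomm40/Tomm40l*, *Timm8a1/Timm8b*, *Timm10/Timm10b* and *Grpel1/Grpel2* have no overlap between the fractions, and the other 3 overlap.

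Levels per length also differed widely within the set. In EpCAM- cells *Hspd1* was highest at 435 ± 42.0 CPM per kb (SD, n = 4), followed by *Tomm5* at 216 ± 43.6, *Hspe1* at 179 ± 26.2, *Timm13* at 169 ± 11.7 and *Hspa9* at 157 ± 24.0 CPM per kb. From *Tomm5* to *Hspa9*, neighbours in this order differed by less than the larger of their SDs. At the other end *Tomm40l* had 4.05 ± 0.80 and *Timm10b* 3.30 ± 0.45 CPM per kb, also closer to each other than the larger SD. In EpCAM+ cells *Hspd1* was still highest, at 229.8 ± 11.4 CPM per kb, ahead of *Tomm5* at 158 ± 22.3 CPM per kb. The deposited FPKM gave a related order (Spearman's rho = 0.788 over the 34 genes), but a gene moved by up to 14 ranks, and the lengths behind those values differ from the ones used here. Over the 34 genes, more abundant genes had lower log2 fold changes (Spearman's rho with mean CPM -0.683). This is a description over genes of the same 8 libraries, and the same measure was -0.487 over the partner genes described next and -0.357 over all tested genes.

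Genes that work with the import machinery were taken from fixed lists, of whose 70 names 67 were in the table and 66 were tested. Of these 66, 32 fell and 5 rose, with a median log2 fold change of -0.26, against 20.8% lower and 21.8% higher among all tested genes. The count of 32 was 22 under upper quartile scaling, 23 under library totals and 38 with the replicate block, where 2083, 2066 and 3353 of all 13560 tested genes were lower, against 2818 in the main comparison. In the outer membrane and its contact sites 6 of 10 fell and 0 rose, and the 2 with the smallest adjusted p were *Chchd3* (-0.56 ± 0.08, adjusted p = 0.000735) and *Immt* (-0.55 ± 0.08, adjusted p = 0.000788), which encode subunits of the MICOS complex that shapes cristae. In the matrix folding and quality control list 11 of 16 fell and 1 rose. *Phb2*, a prohibitin scaffold gene, was at 246, 288, 275 and 303 CPM in EpCAM+ and at 435, 538, 576 and 692 CPM in EpCAM- (-1.01 ± 0.13, adjusted p = 0.000405). *Htra2*, a protease gene of the intermembrane space, also fell (-0.95 ± 0.12), whereas *Hscb*, a cochaperone for iron-sulfur clusters, was the 1 gene that rose (0.29 ± 0.09, adjusted p = 0.0306, overlapping fractions), a call lost in 6 of 18 alternative settings. The log2 fold changes of *Phb2* and *Htra2* lay close to those of *Tomm40* and *Hspd1*.

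Inner membrane and presequence genes showed 4 falls and 1 rise among 12 (20.8% and 21.8% among all tested genes), counts too small to set the list apart. *Pitrm1*, which degrades cleaved presequences, was at 70.5, 81.3, 74.3 and 79.3 CPM in EpCAM+ and at 118, 134, 164 and 200 CPM in EpCAM- (-1.01 ± 0.15, adjusted p = 0.000653). *Mipep*, a second matrix peptidase, fell (-0.55 ± 0.08), and *Immp2l*, an inner membrane peptidase, rose (0.41 ± 0.12, adjusted p = 0.021), a call lost without EpCAM+ replicate 4. Among 15 cytosolic chaperone and delivery genes 7 fell and 1 rose, with *Hspa4* (-0.72 ± 0.09, adjusted p = 0.000339) and *Ubqln4* (-0.43 ± 0.09) lower and *Ubqln2* higher (0.54 ± 0.18, adjusted p = 0.0321, overlapping fractions). The call for *Ubqln2* was lost in 7 of 18 alternative settings.

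Of 13 tested transcription factors and coactivators linked to mitochondrial genes, 4 fell and 2 rose (20.8% and 21.8% among all tested genes), again too few to set the list apart. *Ppargc1a*, a coactivator known for driving mitochondrial gene expression, was higher in EpCAM+, at 1.90, 3.06, 3.41 and 2.40 CPM against 0.936, 0.592, 0.410 and 0.221 CPM. Every EpCAM+ library exceeded every EpCAM- library (2.29 ± 0.39, adjusted p = 0.00145), at levels of a few CPM where 3 reads correspond to 0.168 to 0.222 CPM. The gene had 29, 54, 61 and 37 reads in EpCAM+ and 15, 8, 6 and 3 in EpCAM-, so it passed the filter on low counts through the fraction in which it was high, and it was not tested where at least 10 counts were required in every library. *Gabpb1* rose from 93.6, 89.0, 92.6 and 79.2 CPM in EpCAM- to 109.7, 109.7, 119 and 109 CPM in EpCAM+ (0.33 ± 0.07, adjusted p = 0.00457). It encodes the partner of the ETS factor GABPA, and *Gabpa*, singled out after its values were seen, fell slightly with overlapping fractions (-0.31 ± 0.11, adjusted p = 0.0397). The other 3 that fell were *Hsf1* (-0.22 ± 0.06, adjusted p = 0.0149), *Atf4* (-0.32 ± 0.09, adjusted p = 0.017) and *Myc* (-0.40 ± 0.13, adjusted p = 0.0265), the last also named after its values were seen. The calls for *Hsf1* and *Atf4* were lost under upper quartile and library total scaling, and that for *Atf4* also without EpCAM- replicate 3.

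Other mitochondrial lists gave a background for the set. By the same rule, 20.8% of all tested genes were lower and 21.8% were higher. Among 77 tested mitochondrial ribosomal protein genes 58 fell and 0 rose, with a median log2 fold change of -0.38. Nuclear respiratory chain genes showed 34 falls and 0 rises among 80 (median -0.27). The cytosolic CCT chaperonin genes, which encode no mitochondrial protein, gave 6 falls among 7 tested, with a median of -0.50. Of 11 tested mRNAs made from mitochondrial DNA 0 fell and 1 rose (*mt-Co1*, 0.35 ± 0.12, adjusted p = 0.038, overlapping fractions, named after its values were seen), and their median was -0.11. Differences between these lists were not tested.

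**Figure D4:**
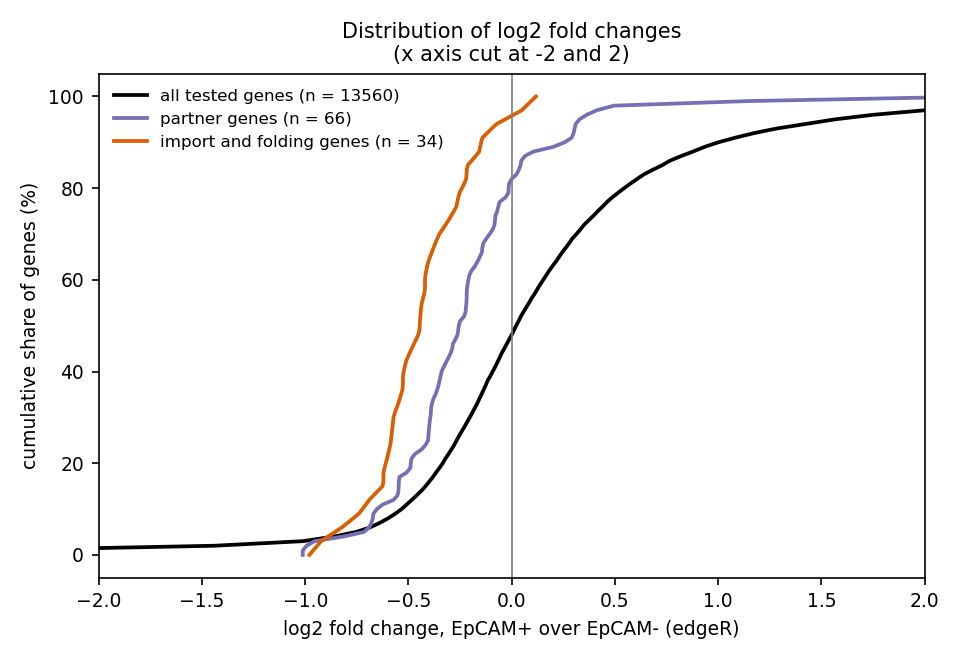
Cumulative share of genes (y axis, percent) by log2 fold change, EpCAM+ over EpCAM- (x axis), for all 13560 tested genes (black), 66 partner genes (purple) and 34 import genes (orange). The medians are 0.02, -0.26 and -0.45.

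The libraries of each fraction were not equally far apart. Relative to the EpCAM- mean, the median import gene stood at log2 values of -0.56, -0.40, -0.45 and -0.41 in EpCAM+ replicates 1 to 4 and at -0.20, 0.07, 0.03 and 0.06 in EpCAM- replicates 1 to 4. EpCAM+ replicate 1 was thus the lowest library, and EpCAM- replicate 1 the nearest to EpCAM+. Libraries with the same replicate number deviated together, and within the 4 numbered pairs the median difference was -0.32, -0.50, -0.48 and -0.49, with 29 of the 34 genes lower in EpCAM+ in every pair. Without both libraries numbered 1, 27 import genes fell and 0 rose, against 2587 lower and 2564 higher among all 13625 tested genes.

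Markers of other cells moved with the fractions, and their part in the result was not tested. The counts of called genes in these lists stand against 20.8% lower and 21.8% higher among all tested genes. A gene nearly absent from a fraction may have passed the filter on low counts through the other fraction, so these counts are descriptions only. Summed over 9 neutrophil granule and lineage genes, led by *Mpo* (781 CPM in EpCAM+ and 10435 CPM in EpCAM- on average), EpCAM+ libraries had 1097, 1268, 1154 and 1853 CPM and EpCAM- libraries 18563, 13661, 15368 and 11942 CPM, and 4 of the 9 genes fell. For 8 erythroid genes, led by *Car1* (65.4 against 3443 CPM), the sums were 72.1, 51.8, 95.3 and 239 against 1905, 2184, 4876 and 6626 CPM, with 5 genes lower and 1 higher. Of 6 mast cell and basophil genes, led by *Cpa3* (57.0 against 275 CPM), 4 fell, and the sums were 76.2, 77.3, 71.9 and 97.0 against 281, 363, 554 and 399 CPM. In all 3 lists the EpCAM- libraries were the higher ones, without overlap. Of 14 proliferation genes 11 fell in EpCAM+ and 0 rose (*Pcna*, the most abundant, was not called), and their sums were 3188, 3592, 3156 and 3514 CPM against 4029.8, 4251, 4062 and 4776 CPM.

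In the opposite direction, 9 of 10 LSK and stem cell genes were higher in EpCAM+, led in abundance by *Cd34*, with sums of 2664, 2397, 2767 and 2478 against 1846, 1686, 1424 and 1213 CPM. Plasma cell genes summed to 3978, 453, 674 and 389 CPM in EpCAM+ and 257, 259, 245 and 171 CPM in EpCAM- (3 of 5 tested higher), with *Jchain* at 1093 CPM in EpCAM+ and 0.131 CPM in EpCAM- on average. That EpCAM- mean is under the 0.187 to 0.222 CPM that 3 reads correspond to there. *Jchain* thus passed the filter on low counts through the fraction in which it was high. EpCAM+ replicate 1 stood far above the other libraries in the plasma cell list and was also the library with the lowest import genes, and without it 22 import genes fell. The count was also 22 without EpCAM- replicate 3 and 23 without EpCAM+ replicate 3 or EpCAM- replicate 2. Over all tested genes 2818 were lower with every library and 2479 without EpCAM+ replicate 1. That count was 2373 without EpCAM- replicate 3, 2271 without EpCAM+ replicate 3 and 2823 without EpCAM- replicate 2. Dendritic cell genes (6 of 8 tested higher) had sums of 1039, 352, 550.4 and 1054 against 438, 424, 318 and 269 CPM and overlapped, with *Klk1* at 0 in every library. The most abundant of them, *Flt3* (366 against 199 CPM on average), is also on the LSK and stem cell list, so it counts in both sums. Macrophage genes, mostly *Lyz2*, summed to 541 to 647 CPM against 284 to 469 CPM, higher in EpCAM+ without overlap (2 lower and 1 higher of 6 tested).

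Lymphoid and epithelial genes completed the check. B cell genes, mostly *Cd79b*, summed to 73.3 to 129 CPM against 47.7 to 81.4 CPM (2 of 4 tested higher), and *Pax5* was at 0 in every library. T and NK cell genes, with *Cd4* most abundant, summed to 5.23, 3.69, 4.58 and 7.59 CPM in EpCAM+ and to 2.81, 2.29, 1.37 and 1.62 CPM in EpCAM-, low but higher in EpCAM+ without overlap, and the 1 tested gene was higher. Megakaryocyte genes, led by *Pf4*, overlapped at 86.9 to 372 CPM (1 of 5 tested higher, against 21.8% of all tested genes). The epithelial list, which includes *Epcam* itself and is led by *Krt18* (177 against 80.6 CPM), summed to 356 to 431 CPM in EpCAM+ and 79.8 to 113 CPM in EpCAM-, all 4 tested genes were higher, and *Krt5*, *Krt14* and *Krt19* were at 0 throughout.

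**Figure D5:**
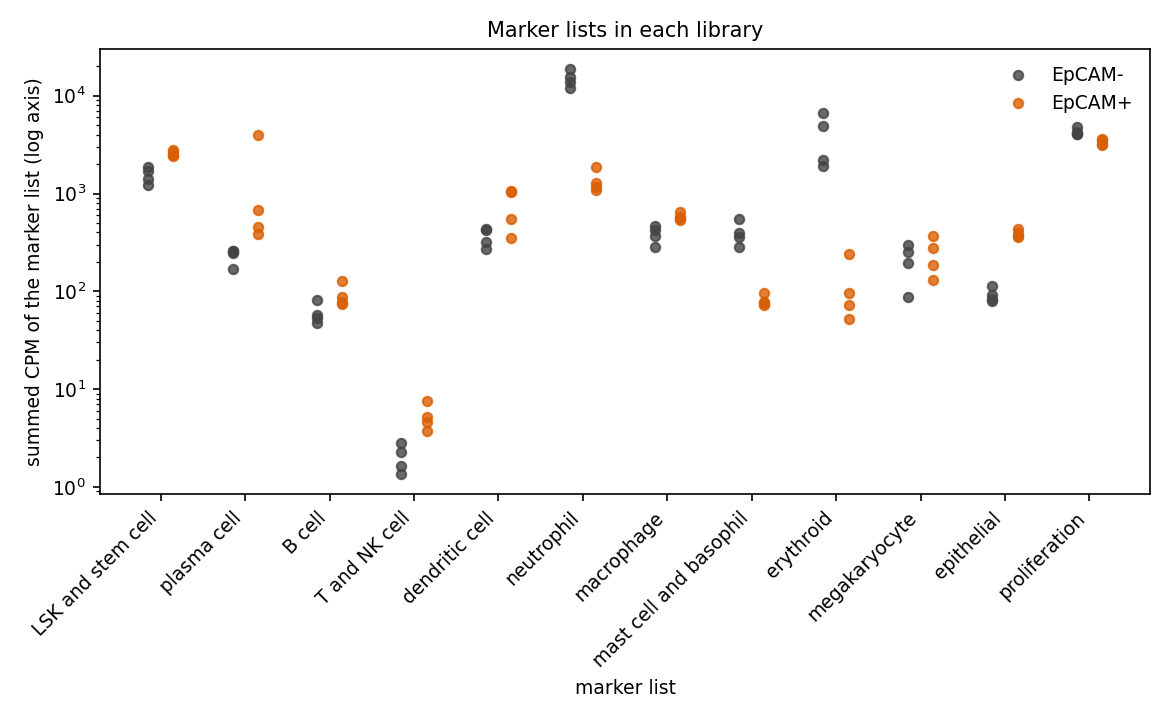
Summed CPM of 11 cell type marker lists and a proliferation list (y axis, log scale) in each of the 4 EpCAM- (grey) and 4 EpCAM+ (orange) libraries. Neutrophil, mast cell, erythroid and proliferation sums are higher in EpCAM- and LSK, plasma cell, macrophage, T and NK cell and epithelial sums higher in EpCAM+, without overlap, and the other 3 lists overlap.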

How the data were processed

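RNA-Seq libraries from 4 *Zeb1-/- EpCAM+* and 4 *Zeb1-/- EpCAM-* LSK samples were analysed. The authors aligned reads to GRCm38.p6 with STAR 2.6.1d, counted them per gene with featureCounts 1.5.0-p3 and deposited raw read counts per gene, without normalization. The deposited FPKM values were computed by the authors from gene length and mapped reads and were used here only to check the order of levels. Strand setting, annotation release and treatment of multimapping reads are not given in the sources used here. A further 15 columns with the authors' comparisons (fold changes, p-values) were not used.

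Counts were fitted in R 4.3.3 with edgeR 4.0.16 (filterByExpr, TMM, quasi-likelihood test, two-sided, Benjamini-Hochberg over all 13560 tested genes, threshold 0.05), with DESeq2 1.42.0 as an alternative. The fit was tested on simulated data. Standard errors came from the F statistic. CPM use TMM-scaled library sizes. Floors of 3 reads cover counting error only, and reads carry no molecular identifiers. Ratios of gene pairs used counts plus 0.5 and exact permutation tests. Exon overlaps came from GENCODE M21, whose start and end matched the table for 34 of the 37 genes, and figures were drawn with matplotlib 3.10.9.

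The members and lists were chosen with earlier results of these data known. Values in every library were given for the 2 genes with the smallest adjusted p in each role, every member of a tested pair and every gene not tested; of each partner list the 2 smallest adjusted p in each direction were named. The study gives 4 mice per genotype. The labels do not say whether both fractions came from the same mice or what the replicate numbers share. Same-numbered libraries deviated together from their fraction means (correlation across genes 0.205 to 0.356 in 4 pairs, -0.216 to 0.0396 in 12 other pairs), so the numbers were taken to pair the samples. The main fit has no block, and the fit with the replicate number as a block was an alternative. No libraries were duplicates (chi-square per degree of freedom at least 10.6).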

Additional observations from a re-analysis of the deposited data

Results flagged for a closer look

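Within-fraction outliers were sought in 68 groups of 4 libraries, 1 for each tested import gene and fraction, and 4 were found by Dixon's test, where chance flags about 1 in 20 groups. *Timm8a1* was at 93.6 CPM in EpCAM- replicate 1, below the other EpCAM- libraries at 125 to 130.1 CPM. *Timm9* was at 72.5 CPM in the same library, below the others at 93.4 to 97.2 CPM. *Timm44* was at 56.2 CPM in EpCAM+ replicate 4, below the others at 62.4 to 63.6 CPM. *Timm17b* was at 145 CPM in EpCAM+ replicate 2, above the others at 120.0 to 123 CPM.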

How the results depend on the processing

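Under 18 alternative settings (DESeq2, RLE, upper quartile and library total scaling, 2 other filters, protein-coding genes alone, the replicate block, each library left out and 2 settings chosen after seeing the data: TMM factors from genes outside the mitochondrial lists, and leaving out both libraries numbered 1), between 22 and 28 import genes and between 22 and 38 partner genes fell. Of the 26 called genes 22 passed in every setting, and *Timm17b*, *Timm21*, *Tomm20* and *Tomm5* lost the call in some. Upper quartile scaling gave 1 import gene higher (*Tomm34*). It moved the median log2 fold change of import genes to -0.36 and that of all tested genes to 0.11, and library totals gave the same 2 values; with these 2 scalings 2083 and 2066 of all genes were lower and 3642 and 3476 higher, against 2818 and 2961. *Grpel2* turned to 0.010 and 0.0093. *Timm10b* turned to -0.0430 without EpCAM- replicate 1 and to -0.016 without both libraries numbered 1. The cause of these turns was not tested. Leaving out 1 library at a time left 22 to 27 import genes lower, 26 to 34 partner genes lower and 2 to 5 partner genes higher. Over all tested genes 2271 to 2950 were then lower. The count of 5 partner genes dropped to 3 without EpCAM+ replicate 3, EpCAM- replicate 1 or EpCAM- replicate 4 and to 2 without EpCAM+ replicate 4. With the replicate block 28 import genes fell (*Pam16* and *Timm22* were added) and 38 partner genes, while the calls over all genes rose to 3353 lower and 3465 higher, and no other call of a named gene that was refitted changed. For gene pairs the exact paired sign-flip test allows no p under 0.125 with 4 numbered pairs of libraries. All 4 differences had one sign, and this p was reached (adjusted p = 0.175), for the 4 separated gene pairs and also for *Timm17a*/*Timm17b*. Leaving out 1 library at a time, the differences kept their sign, from -0.82 to -0.54 for *Tomm40*/*Tomm40l*, -0.70 to -0.44 for *Timm8a1*/*Timm8b*, -0.51 to -0.44 for *Timm10*/*Timm10b*, -0.43 to -0.27 for *Grpel1*/*Grpel2* and -0.21 to -0.13 for *Timm17a*/*Timm17b*. The reads allow no statement on *Timm8a2*, *Tomm20l* or *Tomm6*.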
